A study of Xenopus laevis with 79 samples.

Results

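Preplacodal ectoderm, the strip around the anterior neural plate from which the cranial placodes arise, was compared with nonneural ectoderm, the future epidermis, across all loci of Xenopus laevis at stage (St.) 12.5 of Nieuwkoop and Faber, the end of gastrulation. The comparison rests on the 3 libraries labelled as the anterior neural border joined with preplacodal ectoderm (ANB/PPE) and the 3 labelled as nonneural ectoderm (NNE), which are 6 of the 79 libraries of the series. All 6 came from wild-type embryos with no treatment, fertilised in vitro, and each library was made from 1 fragment of 1 embryo. Replicates 1, 2 and 3 of both regions were cut from embryos 4, 5 and 7, so that every embryo gave 1 fragment of each kind. The ectoderm was lifted off the mesoderm with an eyebrow knife, and the study kept a fragment for sequencing after quantitative PCR for sox2, an epidermal keratin, pax3, snai2 and myod1, so the levels of these genes were part of how the libraries were chosen. An ANB/PPE fragment holds the border of the neural plate together with the preplacodal strip, and an NNE fragment of this stage was not divided along the body axis, whereas at St. 14 the anterior nonneural ectoderm was cut on its own. Because the libraries are bulk RNA, more cells of a type and more RNA per cell cannot be told apart. The p-values measure the spread between libraries of 1 region, pooled over all regions in a fit. Except where embryo is named as a block, they take no account of which fragments share an embryo.

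As background, the ectoderm at this stage is divided by graded bone morphogenetic protein (BMP), Wnt and fibroblast growth factor (FGF) signals. High BMP and Wnt activity goes with epidermis, and attenuation of both at the anterior edge of the neural plate, with FGF, goes with preplacodal ectoderm, whose regulators include six4 and the eya genes. The superficial and inner layers of the frog epidermis later carry goblet cells, multiciliated cells and ionocytes, while the most anterior ectoderm forms the cement gland and the hatching gland. The frog genome is allotetraploid, and most genes are present as a copy on a long and a short chromosome, given by the endings .l and .s of a locus name.

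The 6 libraries held 11222906 to 13130674 counts on named or numbered loci, so that their depth was alike. Of 45099 loci, 20956 passed the filter of more than 10 counts in at least 2 of the 22 St. 12.5 libraries and were tested by quasi-likelihood in edgeR, with a mean fitted to each of the 7 regions. Levels are in CPM, each count relative to the total of its library after TMM scaling, in the order of replicates 1, 2 and 3, and a log2 difference is ANB/PPE minus NNE with its standard error (SE). A locus was called higher or lower at a false discovery rate (FDR) of 0.05.

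The defining markers of both tissues followed the labels, while 2 libraries stood apart in part. Of 20 tested epidermal marker loci, 6 were lower and 0 higher in ANB/PPE, with summed levels of 4263, 5140.2 and 2274 CPM in ANB/PPE and 12468, 14559 and 14546 CPM in NNE. Preplacodal markers summed to 1874, 2257 and 1838 CPM in ANB/PPE and 589, 782 and 1007 CPM in NNE, and 8 of 23 were higher and 0 lower (3 higher with DESeq2 and 14 with limma-voom). Both sums separated the regions without overlap. Among the libraries, NNE replicate 3 carried anterior genes that the other NNE libraries nearly lacked, and ANB/PPE replicate 3 had less of the epidermal genes than the other ANB/PPE libraries. The latter correlated less with the mean NNE profile than ANB/PPE replicates 1 and 2 did (r = 0.919 against 0.947 and 0.949 across loci, which are no replicates), and more with the anterior neural plate (NPa, r = 0.934 against 0.915 and 0.912). Both of these libraries came from embryo 7, and values without that embryo are given where they alter a count.

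Markers of tissues below the ectoderm were low, with exceptions in ANB/PPE. Mesodermal markers summed to 21.5, 15.4 and 70.6 CPM in ANB/PPE and 38.9, 104 and 42.03 CPM in NNE, and the muscle regulator myod1, which the study used to select fragments, was at or below 0.477 CPM. Of 26 prechordal plate and notochord loci, 9 were higher in ANB/PPE, and their sum was 471, 663 and 667 CPM against 12.1, 39.8 and 154 CPM, largely from otx2 and cyp26a1, which anterior ectoderm also expresses. The notochord genes shh and not.l reached at most 0.09 and 2.55 CPM in the 6 libraries, but gsc.s, a homeobox gene of the prechordal plate, had 15.6, 8.204 and 69.3 CPM in ANB/PPE and 0.308, 0.6304 and 2.41 CPM in NNE. Chordin (chrd), of the same list, had 9.47, 5.04 and 15.1 CPM in ANB/PPE and 0.103, 0 and 0.302 CPM in NNE at xelaev18029538m.g. Endodermal markers summed to 455, 162 and 538 CPM in ANB/PPE and 90.2, 84.8 and 138 CPM in NNE, with sox17b.1.s at 6.003 CPM in ANB/PPE replicate 3. Their single loci did not follow that sum. Of 21 tested, 0 were higher and 2 lower in ANB/PPE, with a median log2 difference of -0.735. The part of these tissues in the results below was not tested.

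In all, 614 loci were higher in ANB/PPE and 1241 were lower, which is 2.93% and 5.92% of the loci tested. The higher loci had a median fold of 4.71 and the lower ones of 4.05. All 3 embryos gave the same sign for 1846 of these 1855 loci, and in 1823 the 3 values of one region did not overlap those of the other. Both counts follow largely from the calls, which were made on these same libraries, and are no separate support for them. Of the higher loci, 190 had a mean below 1 CPM in NNE and 31 had no count there, while 186 of the lower loci had a mean below 1 CPM in ANB/PPE and 5 had no count. The number of calls leaned on single libraries. It was 275 higher without ANB/PPE replicate 3, 351 without NNE replicate 1 and 324 without NNE replicate 2. For lower loci it was 688 without ANB/PPE replicate 2, 386 without ANB/PPE replicate 3, 809 without NNE replicate 2 and 698 without NNE replicate 3. Without both libraries of embryo 7 there were 228 higher and 205 lower loci.

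**Figure D1:**
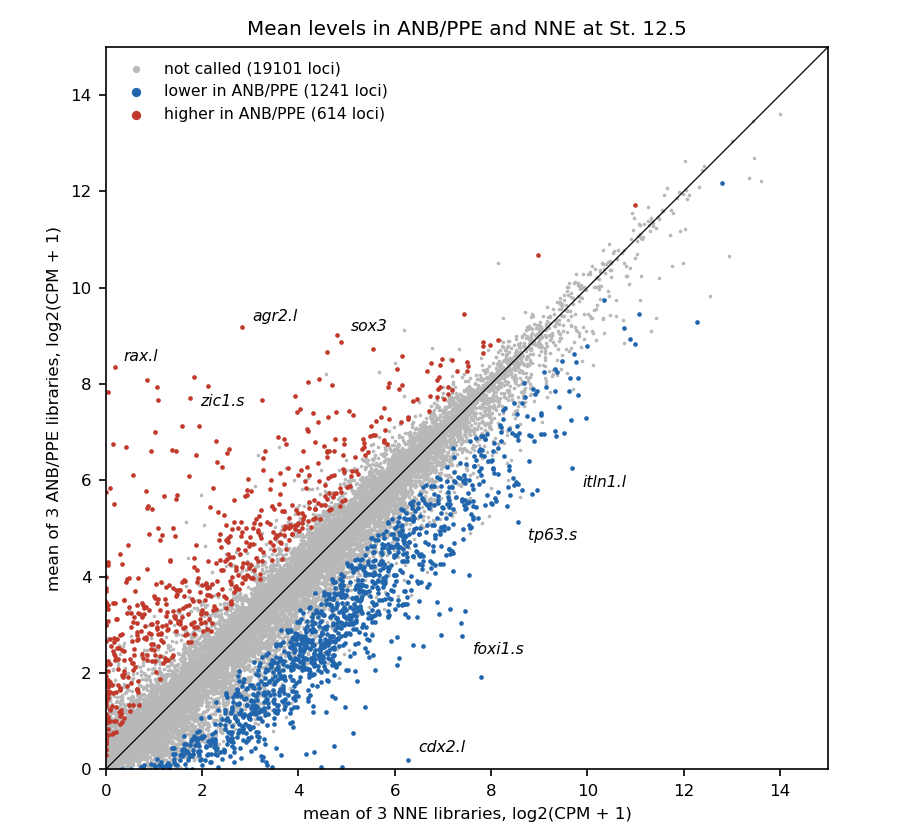
Mean level of each tested locus in the 3 NNE libraries (x axis) against the 3 ANB/PPE libraries (y axis), both as log2(CPM + 1); points are loci, with 614 called higher in ANB/PPE in red, 1241 called lower in blue and 19101 not called in grey. Forebrain genes such as rax.l lie along the y axis and posterior genes such as cdx2.l along the x axis, near 0 in the other region.

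Genes of the forebrain and eye field, not all of them transcription factors, were higher in ANB/PPE at most of their loci. The receptor gene fzd8 is in this list and in that of the Wnt pathway. Of 38 tested loci from 26 forebrain and eye field genes, 28 were higher and 0 lower. The list had a median log2 difference of 3.98, against -0.0014 over all loci tested. This and the other gene lists were chosen with earlier results of these data known, so their counts and medians are a description. The summed level of the list was 4053, 5135 and 5104 CPM in ANB/PPE and 164, 302 and 889 CPM in NNE, where replicate 3 lay above the other 2 libraries. In rax.l, a homeobox gene of the eye field, ANB/PPE had 232, 337 and 407 CPM and NNE 0.308, 0 and 0.101 CPM (log2 difference 11.18 ± 2.19, FDR = 0.00308). Its copy rax.s had 160.0, 255 and 262 CPM in ANB/PPE and 1 count in all of NNE, a count ratio of 6902-fold (95% Poisson interval 1239 to 272624). Both copies were thus near 0 in every NNE library, and the groups did not overlap, but neither was called with limma-voom (FDR = 0.0589 for rax.l and 0.118 for rax.s), and rax.s was not called without embryo 7 (FDR = 0.0559). The forebrain homeobox gene six3.s had 284, 263 and 260.4 CPM in ANB/PPE and 0.308, 0.0901 and 2.01 CPM in NNE (log2 difference 8.39 ± 1.82, FDR = 0.00635). For hesx1, a repressor of the most anterior ectoderm, the locus xelaev18001776m.g had 153, 219 and 358 CPM in ANB/PPE and 0.103, 0 and 3.12 CPM in NNE (log2 difference 7.83 ± 1.404, FDR = 0.00166). Among the 3 ANB/PPE libraries six3.s was nearly level, whereas hesx1 was highest in replicate 3.

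Both copies of the zinc finger gene fezf2, which acts in the forebrain, were higher in ANB/PPE than in NNE, with 52.7, 60.03 and 56.4 CPM of fezf2.s and 2 counts in all of NNE, a ratio of 867-fold (95% Poisson interval 240.0 to 7158). A hes3-like repressor, hes3-like.l, had 41.1, 37.3 and 80.99 CPM in ANB/PPE and no count in NNE, so that it was at least 538-fold higher, taking 3 counts over the 3 NNE libraries as the floor (FDR = 3.47e-05). Neither of these genes overlapped between the regions. The LIM homeobox gene lhx2, which acts in eye and forebrain, had no count in NNE for either copy and 18.1, 8.77 and 17.5 CPM of lhx2.s in ANB/PPE (at least 151-fold higher, FDR = 0.0176). That call was lost without ANB/PPE replicate 3 or NNE replicate 1, 2 or 3 (FDR up to 0.0625). The same held for lhx2.l at 15.5, 4.39 and 17.6 CPM (FDR = 0.0351), which was not called without ANB/PPE replicate 1 or 3 or NNE replicate 1, 2 or 3 (FDR up to 0.105).

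Otx factors, which mark the whole head ectoderm, were higher in ANB/PPE at some loci, and NNE replicate 3 stood apart in them. The otx2 locus xelaev18041108m.g had 85.8, 136 and 109.5 CPM in ANB/PPE and 4.42, 8.38 and 44.9 CPM in NNE (log2 difference 2.52 ± 0.71, FDR = 0.0289), and its call was lost without ANB/PPE replicate 2 or 3 or NNE replicate 1 or 2 (FDR up to 0.129). The other otx2 locus, xelaev18039840m.g, had 268, 371 and 248 CPM against 0.308, 0.901 and 67.5 CPM and was not called (FDR = 0.0908). Neither locus overlapped between the regions, but NNE replicate 3 stood well above NNE replicates 1 and 2 in both. For otx1.s the levels were 76.6, 105 and 67.1 CPM and 0, 0.6304 and 11.2 CPM (log2 difference 4.399 ± 1.202, FDR = 0.0257), not called without ANB/PPE replicate 2 or 3 or NNE replicate 1 or 2 (FDR up to 0.106). The photoreceptor-type homeobox gene crx.s had 320.2, 433 and 467 CPM and 2.57, 6.75 and 60.4 CPM (log2 difference 4.13 ± 0.96, FDR = 0.00972), and lost its call without NNE replicate 2 (FDR up to 0.0501). Without embryo 7, 20 of the forebrain and eye field loci were called higher, and leaving out 1 library gave 18 without NNE replicate 1 and 16 without NNE replicate 2.

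Neural plate genes were higher in ANB/PPE as well, and here all 3 NNE libraries were low. Of 43 tested loci, 28 were higher and 0 lower, with a median log2 difference of 2.74 and summed levels of 2071, 2277 and 3045 CPM in ANB/PPE against 262, 403 and 534 CPM in NNE. The pluripotency and neural factor sox2.1 had 70.9, 93.9 and 133 CPM in ANB/PPE and 5.24, 4.41 and 5.03 CPM in NNE (log2 difference 4.34 ± 0.31, FDR = 5.14e-08); the study selected fragments on sox2. Its relative sox3, at locus xelaev18042169m.g, had 449, 412 and 546 CPM and 32.8, 23.5 and 28.9 CPM (log2 difference 4.05 ± 0.35, FDR = 6.39e-07). Even the lowest ANB/PPE library lay far above the highest NNE library for both. The zinc finger gene zic1.s, of the neural plate and its border, had 173, 206 and 246 CPM in ANB/PPE and 1.75, 1.98 and 3.32 CPM in NNE (log2 difference 6.47 ± 0.495, FDR = 1.41e-07). The zinc finger gene sall2.s had no count in NNE and 15.8, 7.15 and 13.2 CPM in ANB/PPE (at least 124-fold higher, FDR = 0.000445). The call of each of these held in every fit without 1 library. The helix-loop-helix genes neurog2 and olig2.s were also among the higher loci. Without embryo 7, 19 of the list were higher.

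Border genes divided into higher and lower ones. Of 57 tested loci of neural border and crest genes, 8 were higher and 9 were lower, with a median log2 difference of 0.18. The higher ones were the zic1 and pax3 copies, hes4, both klf17 loci and sp7.l. The paired-box gene pax3, a border specifier used in the study's selection, had 41.3, 41.2 and 40.97 CPM in ANB/PPE and 1.44, 0.0901 and 1.31 CPM in NNE at xelaev18029860m.g (log2 difference 5.46 ± 0.93, FDR = 0.00113). The 3 ANB/PPE libraries were level and did not overlap NNE. The Notch-responsive repressor hes4 (xelaev18037468m.g) had 23.2, 17.4 and 18.96 CPM and 2.88, 2.702 and 2.11 CPM (log2 difference 2.95 ± 0.27, FDR = 1.19e-06). The Krueppel-like factor klf17 (xelaev18023103m.g), known from the hatching gland and the crest border, had 369, 439.8 and 274 CPM and 161, 128 and 146 CPM (log2 difference 1.32 ± 0.32, FDR = 0.0137), a call lost without ANB/PPE replicate 2 or NNE replicate 2 (FDR up to 0.0622). The lower ones were ets1, both znf703 copies, 3 gbx2 loci, both tfap2c loci and msx2.l. The zinc finger gene znf703.l had 0.477, 0.162 and 0.174 CPM in ANB/PPE and 28.99, 22.2 and 5.73 CPM in NNE (log2 difference -6.07 ± 0.75, FDR = 6.04e-05), with NNE replicate 3 the lowest of its region. Without embryo 7, 5 were higher and 4 lower. The higher count was 5 without ANB/PPE replicate 2 and 5 without NNE replicate 2, and the lower count 5 without ANB/PPE replicate 3.

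Many preplacodal and placodal regulators were higher in ANB/PPE, but six4 and eya1, which act in the preplacodal state, did not pass the test, and of the eya genes only eya2.s did, at a low level. Of 52 tested loci, 19 were higher and 0 lower, with a median log2 difference of 1.74. For the homeobox gene six4.l the levels were 39.1, 66.4 and 55.9 CPM in ANB/PPE and 46.2, 62.1 and 84.1 CPM in NNE (FDR = 0.825), and for eya1.s they were 12.4, 21.4 and 12.4 CPM and 8.02, 9.096 and 15.6 CPM (FDR = 0.871). Both overlapped between the regions. The transcriptional coactivator eya2.s had 0.637, 1.06 and 1.305 CPM in ANB/PPE and 1 count in NNE, a ratio of 30.5-fold (95% Poisson interval 5.47 to 1203) with FDR = 0.03704, a call lost without ANB/PPE replicate 2 or 3 or NNE replicate 1, 2 or 3 (FDR up to 1).

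Dlx and foxi4 genes act as competence factors that the preplacodal region shares with epidermis. The homeobox genes dlx3.l and dlx3.s had 176, 193 and 85.95 and 180.4, 165 and 64.99 CPM in ANB/PPE and 144, 203 and 193 and 254, 280.0 and 212 CPM in NNE, and neither was called (FDR = 0.902 and 0.325). The related dlx5.s had 129, 107 and 52.98 CPM and 31.3, 51.9 and 54.6 CPM (FDR = 0.0864; 0.0393 with embryo as a block). Its neighbour in the family, dlx6.s, was higher in ANB/PPE, with 171, 179 and 122 CPM against 31.4, 49.4 and 74.3 CPM (log2 difference 1.61 ± 0.49, FDR = 0.0466), although this call was lost when any 1 of the 6 libraries was left out (FDR up to 0.175). In all 4 of these loci ANB/PPE replicate 3 was the lowest of its region. The forkhead gene foxi4.1.l, which acts upstream of preplacodal genes, had 13.1, 34.9 and 1.83 CPM in ANB/PPE and 6.68, 50.5 and 52.99 CPM in NNE (FDR = 0.611), with values that overlapped widely.

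The anterior placodal genes pitx1.l and foxe3.s and the pax6 locus given here, by contrast, were absent or nearly so in NNE replicates 1 and 2. The homeobox gene pitx1.l, which marks the cement gland and the oral ectoderm, had 113, 99.1 and 61.1 CPM in ANB/PPE and 0, 0 and 8.04 CPM in NNE (log2 difference 5.09 ± 1.25, FDR = 0.0177), and its call was lost without NNE replicate 1 or 2 (FDR up to 0.0526) and with DESeq2 (FDR = 0.367). The lens gene foxe3.s had 22.4, 5.52 and 57.5 CPM and 0, 0 and 2.61 CPM (log2 difference 5.03 ± 1.301, FDR = 0.0208), a call lost without ANB/PPE replicate 3 or NNE replicate 1 or 2 (FDR up to 0.151) and with DESeq2 (FDR = 0.293). In both, NNE replicates 1 and 2 were at 0 and replicate 3 was not. The paired-box gene pax6 (xelaev18024402m.g), which acts in eye, lens and olfactory placode, had 104, 61.8 and 123 CPM in ANB/PPE and 0.103, 0.0901 and 2.51 CPM in NNE (log2 difference 6.74 ± 1.63, FDR = 0.0129), not called without NNE replicate 1 or 2 (FDR up to 0.0626) or with limma-voom (FDR = 0.0512). The Hedgehog pathway factor gli3.l had 83.96, 85.9 and 119 CPM and 5.76, 14.05 and 6.74 CPM (log2 difference 3.44 ± 0.59, FDR = 0.00126), and kept its call without any 1 library. Over the list, 13 loci were higher without embryo 7, and of single libraries left out, 3 moved the count, to 12 without ANB/PPE replicate 3, 9 without NNE replicate 1 and 8 without NNE replicate 2.

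**Figure D2:**
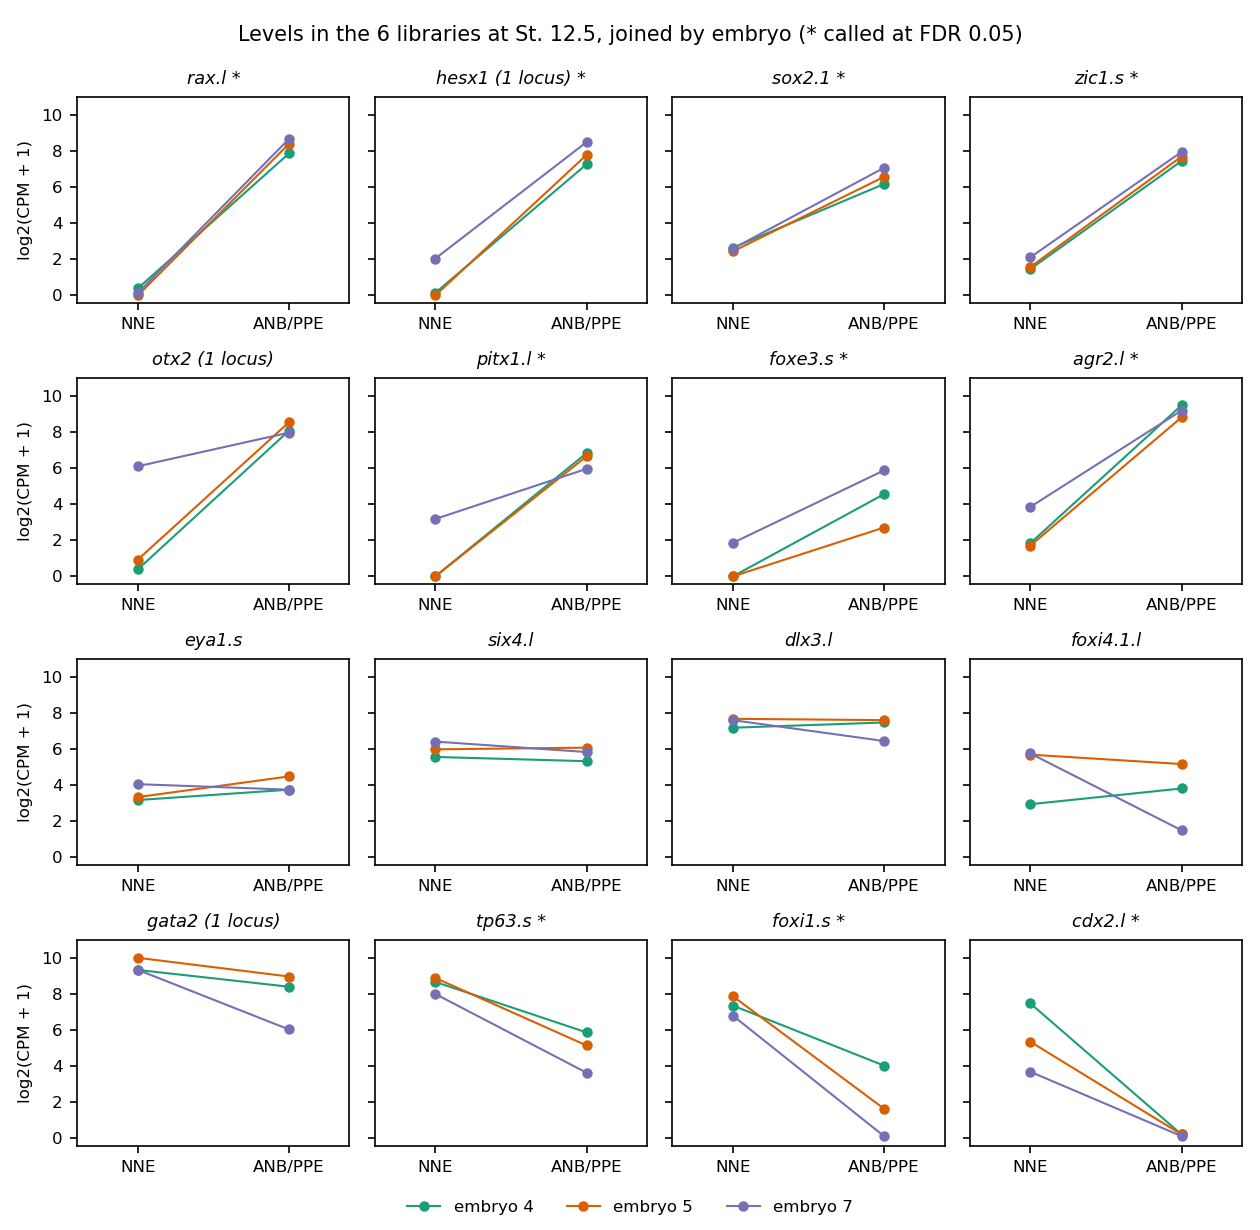
Levels of 16 loci in the 3 ANB/PPE and 3 NNE libraries, as log2(CPM + 1) on the y axis; points are single libraries, lines join the 2 libraries of an embryo, and an asterisk marks a locus called at FDR 0.05. NNE replicate 3, of embryo 7, is the high NNE library in otx2, pitx1.l, foxe3.s, agr2.l and hesx1, and ANB/PPE replicate 3 is the low ANB/PPE library in foxi4.1.l, gata2, tp63.s and foxi1.s.

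Some genes of the cement gland and the hatching gland were higher in ANB/PPE too. Of 20 tested loci, 8 were higher and 0 lower, with a median log2 difference of 1.62 and sums of 4482, 4465 and 4221 CPM against 1523, 1442 and 1803 CPM. With DESeq2 the number higher was 4, and with limma-voom it was 12. The disulfide isomerase agr2.l, a secretory protein of the cement gland, had 710.2, 447 and 581 CPM in ANB/PPE and 2.57, 2.25 and 13.4 CPM in NNE (log2 difference 6.58 ± 1.05, FDR = 0.000688). Its copy agr2.s had 633, 406 and 518 CPM and 24.2, 17.1 and 39.3 CPM (log2 difference 4.27 ± 0.74, FDR = 0.00139). Both differences held without any 1 library, and the groups were far apart. The cement gland gene ag1 (xelaev18044817m.g) was present in both regions, at 1389, 1713 and 1812 CPM and 384, 529.6 and 593 CPM (log2 difference 1.71 ± 0.52, FDR = 0.0434), and its call was lost when any 1 of the 6 libraries was left out (FDR up to 0.154). The endoplasmic reticulum stress sensor ern2 of secretory cells (xelaev18047693m.g) had 33.3, 20.9 and 17.9 CPM and 2.67, 1.62 and 3.72 CPM (log2 difference 3.17 ± 0.59, FDR = 0.00212). For ern2 no NNE value reached those of ANB/PPE. The count of higher gland loci was 5 without ANB/PPE replicate 2, 5 without ANB/PPE replicate 3, 4 without NNE replicate 1 and 4 without NNE replicate 2.

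In the other direction, some regulators of the nonneural ectoderm were lower in ANB/PPE, and most were not called. Of 69 tested loci, 14 were lower and 3 higher, with a median log2 difference of -1.14 and sums of 6025, 7051 and 3582 CPM in ANB/PPE against 10700.3, 15717 and 12663 CPM in NNE. The basal epidermal regulator tp63.s had 57.3, 34.3 and 11.4 CPM in ANB/PPE and 403, 469.7 and 254 CPM in NNE (log2 difference -3.45 ± 0.64, FDR = 0.00229). The BMP-induced homeobox repressor ventx1.2.l had 4.297, 2.52 and 0.783 CPM and 27.96, 29.4 and 13.4 CPM (log2 difference -3.21 ± 0.48, FDR = 0.000430). Both groups stood apart, with ANB/PPE replicate 3 the lowest library. The grainyhead factor grhl3.l, of the superficial epidermis, had 172, 198 and 81.6 CPM and 428, 1198 and 794 CPM (log2 difference -2.42 ± 0.704, FDR = 0.0352), not called without ANB/PPE replicate 1, 2 or 3 or NNE replicate 2 or 3 (FDR up to 0.1801). For tfap2c, an AP-2 factor of the epidermis and border, locus xelaev18046210m.g had 343, 316 and 175 CPM and 848, 872 and 666 CPM (log2 difference -1.52 ± 0.38, FDR = 0.0169), not called without ANB/PPE replicate 3 or NNE replicate 2 (FDR up to 0.113). The zinc finger factor gata2 (xelaev18023995m.g) had 335, 497 and 64.1 CPM in ANB/PPE and 639.5, 1019 and 642 CPM in NNE, and was not called (FDR = 0.398). ANB/PPE replicate 3 was by far the lowest library, and no value overlapped. The AP-2 factor tfap2a (xelaev18031635m.g) had 276, 228 and 128 CPM and 397, 447 and 293 CPM (FDR = 0.219). The 3 higher loci were both dlx6 copies and grhl2.l, which is 4.35% of the list beside 2.93% of all loci tested. In the fits without 1 library, 0 to 1 of the list were higher. The call of grhl2.l was lost when any 1 of the 6 libraries was left out (FDR up to 0.140). Without embryo 7, 5 loci were lower and 0 higher, and the lower count was 8 without ANB/PPE replicate 2, 7 without ANB/PPE replicate 3 and 9 without NNE replicate 2.

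Keratins, the intermediate filaments of epithelia, were lower in ANB/PPE by their sums, but few single loci passed. Summed over the list, ANB/PPE had 20504, 18178 and 11528 CPM and NNE 41263, 31994 and 39696 CPM, and 4 of 20 tested loci were lower and 0 higher, with a median log2 difference of -1.66. With embryo as a block or limma-voom the number lower was 8. An epidermal keratin was among the genes used to select fragments. The locus krt12.s had 1626, 1731 and 1029 CPM in ANB/PPE and 4386, 3578 and 4287 CPM in NNE (FDR = 0.218), and krt12.l had 70.5, 100.2 and 19.7 CPM and 246, 337 and 400.2 CPM (FDR = 0.0586; 0.0404 with the block). Neither overlapped between the regions. The called locus krt8.2.s had 10.11, 16.8 and 7.57 CPM and 63.8, 59.3 and 44.3 CPM (log2 difference -2.28 ± 0.401, FDR = 0.001499). Keratin genes form families of near copies, and since pairs mapping to several places were not counted, their single levels are uncertain. The number of lower keratin loci was 2 without ANB/PPE replicate 2, 2 without ANB/PPE replicate 3 and 2 without NNE replicate 1, and without embryo 7 it was 2.

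Many genes of the specialised epidermal cells were lower in ANB/PPE, and ANB/PPE replicate 3 was the lowest library by their sum. Of 53 tested loci of multiciliated cells, which drive fluid over the skin, 27 were lower and 1 higher, with a median log2 difference of -1.84 and sums of 1119, 1085 and 750.2 CPM against 2407, 3039 and 2851 CPM. The master regulator mcidas (xelaev18008287m.g) had 71.2, 59.9 and 13.9 CPM in ANB/PPE and 219, 294 and 298 CPM in NNE (log2 difference -2.48 ± 0.68, FDR = 0.0253), a call lost without ANB/PPE replicate 2 or 3 or NNE replicate 2 or 3 (FDR up to 0.135) and with DESeq2 (FDR = 0.113). Its partner in the pathway, foxn4.s, had 24.4, 23.1 and 6.79 CPM and 107, 134 and 127 CPM (log2 difference -2.76 ± 0.69, FDR = 0.0151), lost without ANB/PPE replicate 3 (FDR up to 0.0973). NNE was even across its 3 libraries for both, while ANB/PPE replicate 3 lay well below replicates 1 and 2. The ciliary transcription factor rfx2.s had 91.4, 85.4 and 49.8 CPM and 215, 233 and 212 CPM (log2 difference -1.54 ± 0.26, FDR = 0.00117), and the dynein subunit dnai2.s had 8.99, 7.47 and 5.05 CPM and 27.96, 31.4 and 32.3 CPM (log2 difference -2.09 ± 0.33, FDR = 0.000615). These 2 held without any 1 library. The 1 higher locus of the list was tspan1.l, a tetraspanin, with 27.5, 21.2 and 78.1 CPM in ANB/PPE and 3.701, 2.07 and 4.63 CPM in NNE (log2 difference 3.61 ± 0.41, FDR = 2.19e-05). The lower count was 12 without ANB/PPE replicate 2, 5 without ANB/PPE replicate 3, 15 without NNE replicate 2 and 10 without NNE replicate 3, and without embryo 7 it was 3.

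Ionocyte genes, which serve ion exchange and acid balance of the skin, were lower at 10 of 19 tested loci and higher at 0, with a median log2 difference of -3.18. The forkhead gene foxi1.s, the regulator of ionocyte fate, had 15.3, 2.11 and 0.086996 CPM in ANB/PPE and 162, 233 and 110.2 CPM in NNE (log2 difference -4.85 ± 0.93, FDR = 0.00323). Its copy foxi1.l had 15.9, 1.79 and 0.086996 CPM and 122, 159.8 and 87.9 CPM (log2 difference -4.37 ± 1.03, FDR = 0.01098), and was not called without ANB/PPE replicate 2 (FDR up to 0.0579). ANB/PPE ranged from replicate 1, the highest, to a level near 0 in replicate 3, and all stayed below NNE. Carbonic anhydrase ca12.l had 37.8, 17.95 and 7.05 CPM and 146, 125 and 126 CPM (log2 difference -2.65 ± 0.48, FDR = 0.00189). The goblet and secretory list had 5 of 14 tested loci lower and 0 higher, with a median log2 difference of -1.66. In itln1.l, the intelectin that goblet cells secrete, ANB/PPE had 126, 64.3 and 34.97 CPM and NNE 816, 401 and 1240.3 CPM (log2 difference -3.45 ± 0.96, FDR = 0.0287), not called without ANB/PPE replicate 2 or 3 or NNE replicate 1 or 3 (FDR up to 0.153). The vesicle traffic gene rab25.l had 56.7, 28.4 and 24.5 CPM and 291, 110.1 and 188 CPM (log2 difference -2.43 ± 0.49, FDR = 0.00382), and was called without any 1 library. The calpain capn9.l had 0.318, 0.244 and 0.086996 CPM in ANB/PPE and 4.21, 9.91 and 20.01 CPM in NNE (log2 difference -5.64 ± 1.0001, FDR = 0.00195). For ionocytes the lower count was 3 without ANB/PPE replicate 2, 3 without ANB/PPE replicate 3, 5 without NNE replicate 1 and 5 without NNE replicate 2, and without embryo 7 it was 2. For goblet cells it was 2 without ANB/PPE replicate 2, 2 without ANB/PPE replicate 3, 3 without NNE replicate 1 and 2 without NNE replicate 3, and 0 without embryo 7.

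Genes of junctions and the basement membrane were mostly not called. Of 65 tested loci, 12 were lower and 2 higher, and the median log2 difference was -0.24. The tight junction gene cldn4.l had 859, 755 and 489.6 CPM in ANB/PPE and 2584, 2033 and 1863 CPM in NNE (log2 difference -1.62 ± 0.28, FDR = 0.00124). Its relative cldn1.l had 0.398, 0.244 and 0 CPM and 1.85, 10.4 and 12.7 CPM (log2 difference -5.199 ± 1.05, FDR = 0.00571). Neither overlapped, and both held without any 1 library. The matrix protease mmp3.l had 16.1, 7.39 and 3.65 CPM and 113, 139 and 169.5 CPM (log2 difference -3.95 ± 0.65, FDR = 0.000961), and the matrix glycoprotein thbs1.s had 1.27, 0.6498 and 0.086996 CPM and 29.2, 59.9 and 13.7 CPM (log2 difference -5.64 ± 0.95, FDR = 0.001399). The adherens junction gene cdh1.s had 429, 716 and 455 CPM against 1110.5, 1437 and 1344 CPM, which passed only with embryo as a block (FDR = 0.00536 against 0.0726). The 2 higher loci were the basement membrane gene frem2.1 and the tight junction gene cldn3.l, which is 3.08% of the list beside 2.93% of all loci tested. The call of frem2.1 was lost without ANB/PPE replicate 2. That of cldn3.l, at 1.99, 0.569 and 1.91 CPM in ANB/PPE and no count in NNE, was lost without ANB/PPE replicate 1 or 3. Without embryo 7, 4 were lower and 1 higher, and the lower count was 7 without ANB/PPE replicate 2, 6 without ANB/PPE replicate 3 and 7 without NNE replicate 3.

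Posterior identity genes had lower sums in ANB/PPE, with 128, 57.02 and 70.5 CPM against 985, 575 and 441 CPM in NNE. Of 72 tested loci of posterior genes, 19 were lower and 0 higher (12 lower with limma-voom). The median log2 difference was -1.87, or -0.24 when loci with no count in one region were set at their bound. The caudal gene cdx2.l had 0.159, 0.162 and 0.086996 CPM in ANB/PPE and 177, 39.7 and 11.9 CPM in NNE (log2 difference -9.02 ± 1.11, FDR = 6.04e-05). The groups did not overlap, but the NNE libraries ranged widely, with replicate 1 the highest. The NNE libraries also ranged widely in cdx1.s, with 1 count in ANB/PPE and 85.6, 0.2702 and 0.402 CPM in NNE (FDR = 0.0198), not called without ANB/PPE replicate 1, 2 or 3 or NNE replicate 1 (FDR up to 0.691). The Meis factor meis3 (xelaev18039368m.g), of the hindbrain, had 17.1, 8.12 and 5.13 CPM and 130.5, 120.2 and 97.6 CPM (log2 difference -3.52 ± 0.54, FDR = 0.000497). Its 3 NNE values were close to each other and far above ANB/PPE. Without embryo 7, 13 posterior loci were lower, and the count was 11 without NNE replicate 1.

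Outside these lists, the 15 largest differences in each direction among loci with a mean of at least 10 CPM held a few further genes. The carboxypeptidase gene cpn1.s had 6.53, 5.69 and 17.9 CPM in ANB/PPE and no count in NNE (at least 101-fold higher, FDR = 0.000581). The neural plate forkhead gene foxd4l1.1.s had 18.4, 10.07 and 25.1 CPM and 1 count in NNE, a ratio of 544-fold (95% Poisson interval 97.7 to 21490.4). Both were absent or nearly so from every NNE library. On the lower side, hepatocyte growth factor (hgf.s) had 1.91, 0.487 and 1.91 CPM in ANB/PPE and 32.8, 44.9 and 44.7 CPM in NNE (log2 difference -4.82 ± 0.85, FDR = 0.00195). The cytokine gene flt3lg.s had 0.637, 0.569 and 0 CPM and 25.1, 37.9 and 13.5 CPM (log2 difference -5.93 ± 0.88, FDR = 0.000360). The leucine-rich repeat gene tril.l had 9.15, 8.53 and 3.83 CPM and 120.0, 242 and 135 CPM (log2 difference -4.52 ± 0.64, FDR = 0.000239). None of these overlapped, and all were called without any 1 library. The remaining lower loci were loc100489456.l and the numbered xelaev18000550m.g and xelaev18045623m.g, at log2 differences of -6.29, -4.85 and -4.398. Of the 30 loci, 24 kept their call in each fit without 1 library. Besides lhx2.s, lhx2.l, cdx1.s and foxi1.l, those that did not were cdx4.l, lost without NNE replicate 1 (FDR up to 0.0619), and cdx2.s, lost without ANB/PPE replicate 2 or 3 or NNE replicate 1 (FDR up to 0.831).

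**Figure D3:**
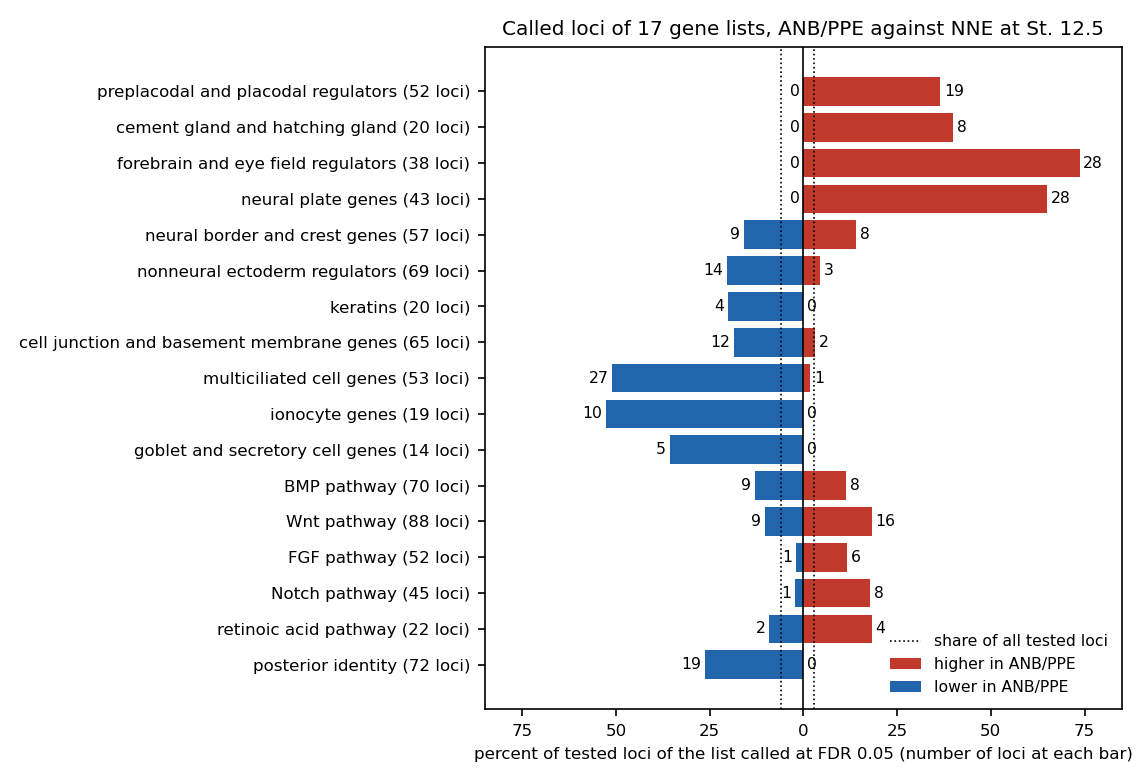
Percent of the tested loci of each of 17 gene lists that were called higher (right) or lower (left) in ANB/PPE than in NNE; dotted lines mark the share over all loci tested, 2.93% higher and 5.92% lower. Forebrain, neural plate, gland and preplacodal lists lie on the higher side only, and keratin, ionocyte, goblet and posterior lists on the lower side only. The lists were chosen with earlier results of these data known.

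Among signalling pathways, BMP genes moved both ways. Of 70 tested loci, 8 were higher (11.4%) and 9 lower (12.9%), with a median log2 difference of -0.44. The shares of all loci tested were 2.93% higher and 5.92% lower. The ligand bmp4 was not called, with 100.1, 132 and 60.1 CPM of bmp4.l in ANB/PPE and 151, 158 and 224 CPM in NNE (FDR = 0.436), and 197, 273 and 98.7 CPM and 111, 134 and 179 CPM of bmp4.s (FDR = 0.726). The type I receptor bmpr1b.s had 34.2, 38.6 and 79.1 CPM in ANB/PPE and 3.598, 0.3602 and 1.41 CPM in NNE (log2 difference 4.83 ± 0.68, FDR = 0.000239). Both receptor copies were higher in all 3 embryos. Of the secreted antagonists, chordin (chrd, xelaev18029538m.g) had 9.47, 5.04 and 15.1 CPM and 0.103, 0 and 0.302 CPM (log2 difference 6.14 ± 1.14, FDR = 0.00221), and noggin (nog.l) had 3.02, 2.27 and 2.96 CPM and 0.206, 0.4503 and 0.201 CPM (log2 difference 3.21 ± 0.73, FDR = 0.00883). These were low levels in every library. Chordin and noggin are also among the prechordal plate and notochord markers, and the part of that tissue in their levels was not tested. On the lower side, the target id2.s, an inhibitor of helix-loop-helix factors, had 107, 82.7 and 19.1 CPM and 260.2, 245 and 289 CPM (log2 difference -1.93 ± 0.44, FDR = 0.00942), and 5 of the 9 lower loci were ventx targets. Without embryo 7 there were 3 higher and 3 lower loci. Of BMP loci the higher count was 5 without NNE replicate 1, and the lower count 5 without ANB/PPE replicate 3.

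Wnt pathway genes were higher at 16 of 88 tested loci (18.2%) and lower at 9 (10.2%), with a median log2 difference of 0.31. Of all loci tested, 2.93% were higher and 5.92% lower. Receptors went in opposite directions. Frizzled fzd8.s had 239.7, 289.6 and 226 CPM in ANB/PPE and 10.9999, 12.4 and 51.3 CPM in NNE (log2 difference 3.34 ± 0.67, FDR = 0.00349), while fzd10.l had 16.95, 6.09 and 3.22 CPM and 272, 194 and 61.6 CPM (log2 difference -4.32 ± 0.69, FDR = 0.000675). Neither overlapped, and in both NNE replicate 3 lay closest to ANB/PPE. Secreted antagonists were among the higher loci: sfrp2.l had 205, 203 and 333 CPM and 2.26, 1.89 and 5.83 CPM (log2 difference 6.22 ± 0.86, FDR = 0.000201), and frzb2 (xelaev18024021m.g) had 2.86, 2.36 and 15.6 CPM in ANB/PPE and no count in NNE (at least 68.8-fold higher, FDR = 0.00264). The intracellular regulator dact1.l had 142, 194 and 177 CPM and 12.03, 11.7 and 20.3 CPM (log2 difference 3.54 ± 0.34, FDR = 2.71e-06). Each of these was called without any 1 library. The feedback target axin2.s was lower in ANB/PPE at 2.15, 0.406 and 1.04 CPM against 14.8, 9.28 and 4.02 CPM (log2 difference -2.95 ± 0.74, FDR = 0.0161), a call lost without ANB/PPE replicate 2 or 3 or NNE replicate 1 (FDR up to 0.0866). Without embryo 7, 9 were higher and 4 lower. Of Wnt loci the higher count was 8 without ANB/PPE replicate 3, 10 without NNE replicate 1 and 9 without NNE replicate 2, and the lower count 5 without ANB/PPE replicate 1, 3 without ANB/PPE replicate 2, 3 without ANB/PPE replicate 3, 3 without NNE replicate 1 and 5 without NNE replicate 2.

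FGF pathway genes were higher at 6 of 52 tested loci (11.5%) and lower at 1 (1.92%), with a median log2 difference of 0.29, or 0.21 with bounds. Of all loci tested, 2.93% were higher and 5.92% lower. With limma-voom 1 was higher. The FGF antagonist il17rd (xelaev18003043m.g) had 41.2, 50.1 and 60.5 CPM in ANB/PPE and 6.68, 4.23 and 8.85 CPM in NNE (log2 difference 2.94 ± 0.58, FDR = 0.00309), and did not overlap. The ligand fgf8.s was low throughout, at 1.91, 2.68 and 2.001 CPM and 0.206, 0.0901 and 0.402 CPM (log2 difference 3.21 ± 0.9997, FDR = 0.0496), and its call was lost when any 1 of the 6 libraries was left out (FDR up to 0.179). The phosphatase dusp6.s, a target of the pathway, went the other way with 34.9, 22.7 and 16.4 CPM and 85.5, 47.4 and 61.5 CPM (log2 difference -1.39 ± 0.32, FDR = 0.00872), lost without ANB/PPE replicate 3 or NNE replicate 1 (FDR up to 0.0695). Without embryo 7, the FGF list had 1 higher locus. The count was 2 without ANB/PPE replicate 1, 2 without ANB/PPE replicate 2, 1 without ANB/PPE replicate 3, 2 without NNE replicate 1, 1 without NNE replicate 2 and 3 without NNE replicate 3.

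Notch pathway genes were higher at 8 of 45 tested loci (17.8%) and lower at 1 (2.22%), with a median log2 difference of 0.48. Of all loci tested, 2.93% were higher and 5.92% lower. With embryo as a block 3 Notch loci were lower, and with limma-voom 4 were higher and 0 lower. DESeq2 called 10 higher and 3 lower. The glycosyltransferase lfng.s, which modifies Notch receptors, had 74.6, 137 and 102 CPM in ANB/PPE and 17.4, 22.1 and 26.7 CPM in NNE (log2 difference 2.24 ± 0.32, FDR = 0.000270). The target nrarp (xelaev18041456m.g) had 226, 216 and 170.3 CPM and 96.6, 73.9 and 92.1 CPM (log2 difference 1.22 ± 0.22, FDR = 0.00195). Both were apart in every library. Retinoic acid genes were higher at 4 (18.2%) and lower at 2 (9.09%) of 22 tested loci, with a median log2 difference of -0.12. The degrading enzyme cyp26a1.s had 35.8, 70.5 and 57.4 CPM in ANB/PPE and 0.925, 4.32 and 14.8 CPM in NNE (log2 difference 3.03 ± 0.69, FDR = 0.00902), not called without NNE replicate 2 (FDR up to 0.0501). The synthetic enzyme rdh10.1 had 79.8, 65.6 and 30.2 CPM and 164, 233 and 180.4 CPM (log2 difference -1.72 ± 0.45, FDR = 0.0194), not called without ANB/PPE replicate 2 or 3 or NNE replicate 2 (FDR up to 0.124). The receptor rara.s was lower in ANB/PPE, with 8.12, 3.82 and 2.87 CPM against 37.8, 34.2 and 16.7 CPM (log2 difference -2.58 ± 0.51, FDR = 0.00323). Without embryo 7, 4 Notch loci were higher and 0 lower, and 6 retinoic acid loci were higher and 1 lower. For Notch the higher count was 5 without ANB/PPE replicate 2, 3 without ANB/PPE replicate 3, 5 without NNE replicate 1, 4 without NNE replicate 2 and 5 without NNE replicate 3, and for retinoic acid genes 2 without ANB/PPE replicate 3 and 1 without NNE replicate 2.

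The loci called higher than in NNE were also compared with the neighbouring neural plate and border. Of the 614 higher loci, 65 (10.6%) were also higher in ANB/PPE than in NPa, where 11.4% of all loci tested were, and 104 (16.9%) were lower than in NPa. Against the anterior neural border (NBa), 84 (13.7%) were higher, beside 8.23% of all loci. Both held for 46 loci (7.49%), and the share of all loci tested for which both held was not counted. Since these comparisons share the ANB/PPE libraries, the counts are a description. By level in ANB/PPE, the gland genes ag1 and agr2 and the factor klf17 were among the highest of the 46. The 46 also held numbered loci with no gene name and genes outside the lists. The means of agr2.l were 579.6 ± 132 CPM in ANB/PPE (SD, n = 3), 6.17 ± 4.95 CPM in NPa (SD, n = 3) and 4.43 ± 5.89 CPM in NBa (SD, n = 4). For pitx1.l they were 90.9 ± 26.7, 0.457 ± 0.452 and 0.398 ± 0.573 CPM. In agr2.l and pitx1.l, which these same comparisons picked out, ANB/PPE stood alone among the 3 anterior regions. By contrast, rax.l had 287 ± 247 CPM in NPa and zic1.s had 266 ± 43.3 CPM in NPa and 391 ± 74.8 CPM in NBa. The count of 46 was 28 without ANB/PPE replicate 1, 30 without replicate 2, 28 without replicate 3, 29 without NNE replicate 1 and 23 without NNE replicate 2. It was 30 without embryo 7 and 75 with embryo as a block.

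Of the 1241 loci lower in ANB/PPE than in NNE, 940 (75.7%) were also higher in NNE than in the lateral neural border (NBl), where 15.8% of all loci were, and 21 were lower in NNE than in NBl. Both comparisons use the same NNE libraries, so part of the excess over all loci is built in. The counts here, and those of the lists below, are a description. Higher in NNE than in NBl were 25 of the 27 lower multiciliated loci, 9 of the 10 ionocyte loci, 3 of the 5 goblet loci, 11 of the 12 junction loci, 2 of the 4 keratin loci and 9 of the 14 lower nonneural regulators. In tp63.s NBl had 17.2 ± 2.91 CPM (SD, n = 3) against 375 ± 111 CPM in NNE (FDR = 0.000268), whereas itln1.l, at 227 ± 168 CPM against 819 ± 419.8 CPM, was not called between them (FDR = 0.141). Of the 19 lower posterior loci, 0 were higher and 10 were lower in NNE than in NBl, and 9 were not called. Among the last was cdx2.l, with 226 ± 17.1 CPM in NBl against 76.1 ± 88.2 CPM in NNE (FDR = 0.105). The count of 940 was 559 without ANB/PPE replicate 2, 313 without ANB/PPE replicate 3, 575 without NNE replicate 2 and 461 without NNE replicate 3. Without embryo 7 it was 141.

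**Figure D4:**
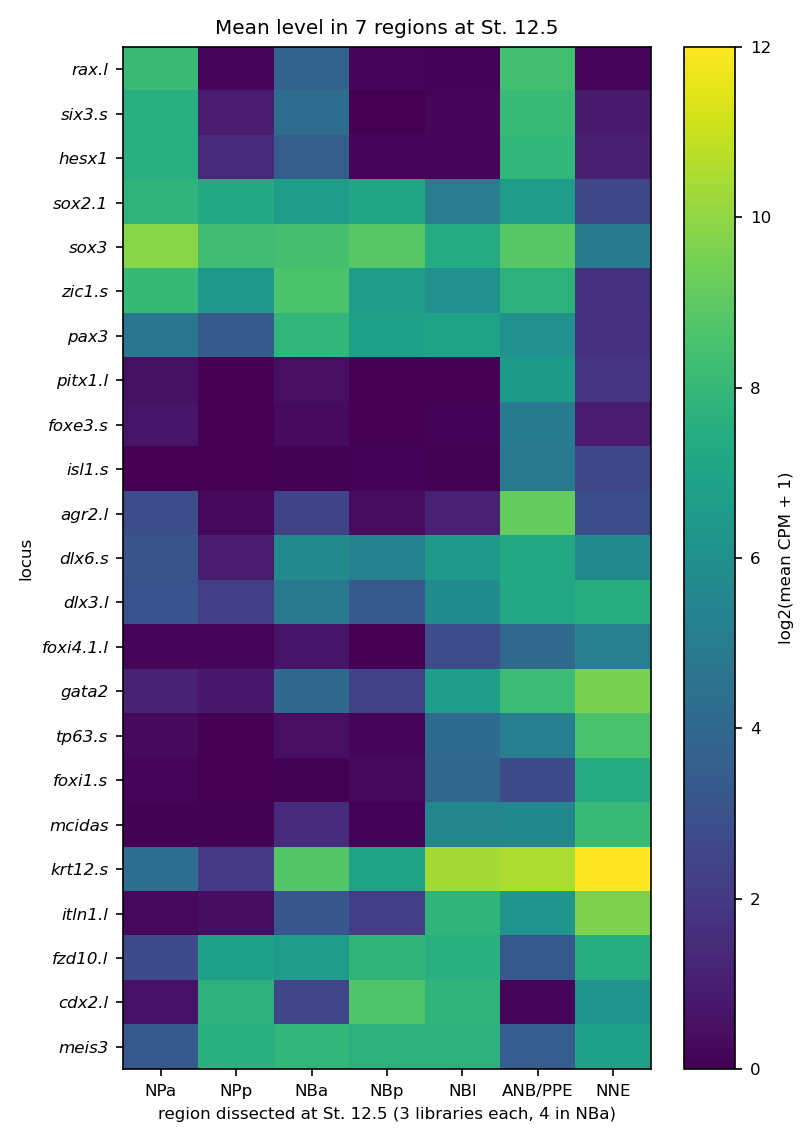
Mean level of 23 loci in the 7 regions of St. 12.5, as log2(mean CPM + 1) in colour, with 3 libraries per region and 4 for NBa. Bright colours are high levels: pitx1.l, foxe3.s, isl1.s and agr2.l are high in ANB/PPE and low in NPa and NBa, rax.l and six3.s are also high in NPa, sox2.1, sox3 and zic1.s in the neural regions, and tp63.s, foxi1.s and mcidas in NNE.

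The same loci were looked up at St. 14 in libraries from other embryos, with 5 libraries of the anterior neural fold plus preplacodal ectoderm (ANF/PPE, replicates 2 and 3 of which came from 1 embryo) and 3 of anterior nonneural ectoderm (NNEa). There 1140 of 22143 loci (5.15%) were higher and 1831 (8.27%) lower in ANF/PPE. Of the 602 St. 12.5 higher loci tested at St. 14, 530 (88.0%) had the same sign and 251 (41.7%) were called higher again, while 6 were called lower. Of 1227 lower loci, 1165 (94.9%) had the same sign, 719 (58.6%) were called lower again and 2 were called higher. Over all loci tested at St. 14, 52.4% had a positive and 47.2% a negative difference. The St. 14 counts leaned on NNEa replicate 1, without which 359 were higher and 534 lower. They were 630 higher without NNEa replicate 3 and 1162 lower without ANF/PPE replicate 3. The lists differed in how many loci called at St. 12.5 were called again in the same direction. These were 24 of 28 forebrain and eye field loci, 14 of 19 preplacodal loci and 15 of 28 multiciliated loci. Fewer were called again among neural plate genes (9 of 28), nonneural regulators (1 of 17) and ionocyte genes (1 of 10). Their signs were the same at 20, 14 and 10 of these loci. The gland gene agr2.l and the anterior gene pitx1.l were again higher on the placodal side. The loci ag1 and foxi1.s were not called there (FDR = 0.125 and 0.170). At St. 14 pitx1.l had 96.3 ± 53.8 CPM in ANF/PPE (SD, n = 5) and 0 ± 0 CPM in NNEa (SD, n = 3; FDR = 5.13e-05), and agr2.l had 1046 ± 868 CPM in ANF/PPE (SD, n = 5) and 1.27 ± 1.29 CPM in NNEa (SD, n = 3; FDR = 0.000513).

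**Figure D5:**
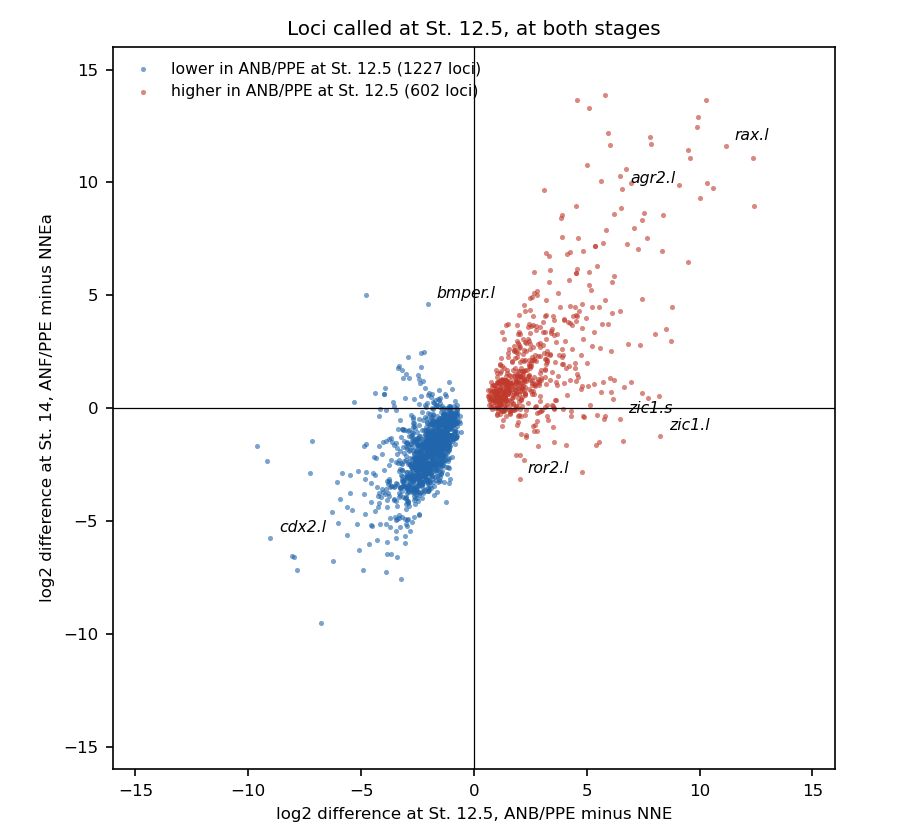
Log2 difference at St. 12.5 (ANB/PPE minus NNE, x axis) against that at St. 14 (ANF/PPE minus NNEa, y axis) for the 602 higher and 1227 lower loci of St. 12.5 that were tested at both stages. Most lie in the upper right or lower left, and zic1.l and zic1.s lie at high x and below 0 on y.

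A test of the change itself, the St. 14 difference minus the St. 12.5 difference, called 63 of 23390 loci (0.269%), 20 more positive and 43 more negative at St. 14. Of the 43, 35 had been higher in ANB/PPE at St. 12.5, beside 2.93% of all loci tested at that stage. The St. 12.5 difference is subtracted in the change, so part of this overlap is built in. Of the 5 loci with the smallest p, 4 are given here. In zic1.l the levels at St. 14 were 70.5, 28.3, 93.3, 48.8 and 66.8 CPM in ANF/PPE and 87.001, 129.7 and 216 CPM in NNEa, after 104, 76.9 and 128 CPM and 0.617, 0.1801 and 0.201 CPM in ANB/PPE and NNE (change -9.42 ± 0.89, FDR = 5.12e-09). The NNEa libraries of St. 14 thus carried zic1.l at levels above most ANF/PPE libraries, whereas NNE of St. 12.5 had nearly none. For zic1.s the change was -6.89 ± 0.71, FDR = 3.75e-08, and the other 2 were the unnamed loci xelaev18013114m.g and xelaev18015642m.g, with changes of -5.76 and -5.66. The fragments of the stages were not cut alike, and stage and dissected area cannot be told apart. The study also saw snai2, a marker of the neural border, at lower levels in some St. 14 replicates of NPa and anterior ectoderm. It proposes that a few border cells were present in those fragments. The part of such cells in the NNEa levels was not tested. The count of 63 was 26 without ANB/PPE replicate 3, 38 without NNE replicate 1, 26 without NNE replicate 2 and 33 without NNEa replicate 3.

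Finally, the L and S copies of a gene were compared. Of 4449 pairs tested, 295 (6.63%) had a log ratio of L to S that differed between ANB/PPE and NNE, 127 with L and 168 with S relatively higher in ANB/PPE. In 155 pairs both copies were called, in the same direction in 147 and in opposite directions in 8. For pdk4, a kinase that restrains pyruvate oxidation, the S copy had 199, 276 and 315 CPM in ANB/PPE and 15.7, 16.7 and 19.7 CPM in NNE, and the L copy 8.67, 10.9 and 10.5 CPM and 9.05, 11.3 and 6.13 CPM (change of the log2 L to S ratio -3.705 ± 0.24, FDR = 9.28e-09). The S copy was far apart between the regions, and the L copy overlapped. In pnp, a purine phosphorylase, the L copy had 30.8, 34.2 and 78.7 CPM in ANB/PPE and 3.29, 1.53 and 0.402 CPM in NNE, and the S copy 6.76, 9.26 and 8.53 CPM and 24.9, 28.998 and 42.4 CPM (6.63 ± 0.54, FDR = 2.24e-07). Its copies lay in opposite orders in every embryo. The other 3 pairs with the smallest p were znf703 (-4.29 ± 0.37, FDR = 4.37e-07), the amino acid transporter subunit slc3a2 (5.15 ± 0.41, FDR = 1.22e-06) and sfrp2 (4.13 ± 0.45, FDR = 1.41e-05). Among members of the lists, both copies of rax, fezf2, zic1, agr2 and foxi1 were called in the same direction. The number of pairs was 144 without ANB/PPE replicate 3 and 184 without NNE replicate 3.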

How the data were processed

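RNA of single dissected fragments was sequenced by the study as paired reads of stranded polyA libraries. Per the labels and the methods, the authors aligned the reads with TopHat2 2.0.14 to the X. laevis genome 9.1, excluded pairs that mapped to several places, and used HTSeq to count fragments on the loci of annotation 1.8, joined with their own transcript models. The deposited values are whole-number counts without normalization. The strand setting of the counting is not given in the sources used here, so reads of overlapping and antisense loci may not be separated. Near-identical paralogs lose reads under the exclusion of multiply mapped pairs.

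The 5 summary entries that name no gene (17.2% to 19.5% of the 6 libraries) were left out, as were the 16 whole-embryo libraries. No libraries were identical. Groups follow the labels' stage and region. All 22 St. 12.5 libraries entered 1 fit in edgeR 4.0.16 (R 4.3.3), with TMM scaling and 1 mean per region, and contrasts were read with the quasi-likelihood F test and Benjamini-Hochberg adjustment at 0.05. The St. 14 fit had 29 libraries and that of the stage change 51. SE is the log2 difference over the root of F. For loci with no count in a region, a bound was set at 3 counts over its libraries, and for 1 to 3 counts a 95% Poisson interval is given, both covering counting error only.

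The named loci were the 15 of each direction with the largest difference among those called, with at least 10 CPM in the higher group and 1 sign in all 3 embryos, the called and defining members of the gene lists with the smallest p, and the 5 loci or pairs with the smallest p of the stage change and copy tests. Some loci that this rule names are not reported here, though the counts include them. The members and the lists were chosen with earlier results of these data known. Of 622 symbols in the lists, 471 were found, some through the names that the study's supplement gives to numbered loci, and 27693 locus names are no symbol.

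ANB/PPE and NNE replicates share embryos by the labels, and their deviations from the region means were correlated across 20956 loci (r = 0.492, 0.387 and 0.315 in embryos 4, 5 and 7). Alternatives were the embryo block, DESeq2 1.42.0, limma-voom (limma 3.58.1), RLE scaling, other filters, the 6 libraries alone, and fits without each library. On simulated data with 200 changed genes among 19868, the comparison of regions recovered 143 with 8 false calls, namely 16 of 67 at 2-fold, 61 of 67 at 4-fold and 66 of 66 at 8-fold. The simulation gave every gene the same spread, set below the common spread that edgeR estimated from the real St. 12.5 libraries. It changed only genes above a minimum mean count and had no effect of a shared embryo. The real libraries differ in these respects, so their recovery and false calls may be worse.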

Additional observations from a re-analysis of the deposited data

Results flagged for a closer look

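Of 31 values tested for a library far from the rest of its group, 8 were flagged. Chance flags about 1 in 20 independent values, but most of the 8 share 1 library, so they cannot be set against that rate. In 7 of the flags NBa replicate 1 was the high library among 4 at St. 12.5. Its gap to the next value, as a share of the range, was 0.962 in rax.s, 0.945 in rax.l, 0.931 in lhx2.s, 0.952 in lhx2.l, 0.895 in cpn1.s, 0.935 in sall2.l and 0.890 in xelaev18004190m.g. For rax.l the NBa libraries had 47.2, 2.65, 0.0606 and 0.0834 CPM. These loci therefore have an NBa mean set mainly by 1 library, which touches the counts of loci higher in ANB/PPE than in NBa. In zic1.s at St. 14 it was 0.728, from 1 high ANF/PPE library among 106, 78.6, 213, 77.8 and 115 CPM.

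The St. 12.5 and St. 14 differences themselves differed by the test of the change in each of 4 loci among the 5 with the smallest p. The change of the log2 difference was -9.42 in zic1.l, -6.89 in zic1.s, -5.76 in xelaev18013114m.g and -5.66 in xelaev18015642m.g. The nonneural fragments of the stages were cut differently, and that cannot be told apart from stage here.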

How the results depend on the processing

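No call of a named locus changed sign under any alternative run. Of 135 named loci called, 135 were called under RLE scaling and with the embryo block, 128 with DESeq2 (of 134 given a value) and 126 with limma-voom, 121 of 133 in the 6 libraries alone, 86 to 117 without 1 library and 78 of 134 without embryo 7, an alternative chosen after seeing the data. In the fits without 1 library, the counts were 275 to 519 higher and 386 to 921 lower in ANB/PPE. Both moved by over 1.5 times in the 6 libraries with the replicate block (1517 higher, 2616 lower) and without embryo 7 (228 and 205), and less with the block in 21 libraries (865 and 1696), DESeq2 (772 and 1717), limma-voom (581 and 1739), or the 2-fold rule (568 and 1161). With the block, 609 higher and 1238 lower loci of the main calls remained. Beyond dlx5.s, krt12.l, cdh1.s, loc549413.l (FDR = 0.038 with the block) and the keratin and Notch counts given in the report, the block changed no call of a named locus. At St. 14, without 1 library, 359 to 1183 were higher and 534 to 1904 lower. The stage change called 40 loci with limma-voom, 23 in the 14 libraries alone and 26 to 75 without 1 library. The loci higher in ANB/PPE than in NNE, NPa and NBa were 101 with limma-voom, 75 with the replicate block, 30 without embryo 7 and 23 to 55 without 1 library. Those higher in NNE than in ANB/PPE and NBl were 1474 with limma-voom, 141 without embryo 7 and 313 to 719 without 1 library. Pairs of copies were 144 to 229 without 1 library. The causes were not tested, though each such fit has fewer libraries. In simulated libraries, 16 of 67 genes changed 2-fold were recovered. These had the same spread for every gene, set below that of the real libraries, and no shared embryos. Most differences of that size were thus missed there, and the share missed in the real libraries was not tested.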

Other observations

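The following loci of the stage change test were chosen after their values were seen. The BMP-binding protein gene bmper.l turned from lower to higher on the placodal side: it had 10.4, 10.97 and 3.31 CPM in ANB/PPE and 25.4, 45.2 and 29.7 CPM in NNE at St. 12.5, and 3.05, 11.1, 3.65, 7.696 and 7.63 CPM in ANF/PPE and 0.0903, 0 and 0.65001 CPM in NNEa at St. 14 (edgeR, change of the log2 difference 6.67 ± 1.08, FDR = 0.000578). The Wnt receptor gene ror2.l went the other way, from 15.1, 46.9 and 72.2 CPM in ANB/PPE and 11.9, 12.2 and 8.95 CPM in NNE to 4.24, 31.1, 1.41, 5.89 and 23.1 CPM in ANF/PPE and 78.8, 133 and 139 CPM in NNEa (edgeR, change -5.12 ± 0.79, FDR = 0.000232). The border gene pax3 (xelaev18027783m.g), which the study used to select fragments, had 24.9, 169, 55.5, 77.03 and 127 CPM in ANF/PPE and 74.4, 139 and 147 CPM in NNEa at St. 14 (edgeR, change -5.24 ± 1.06, FDR = 0.0105). In these 3 genes the order of the regions at St. 14 was not that of St. 12.5, or the values overlapped. The T-box gene tbx3 (xelaev18010379m.g) had 11.8, 12.9 and 3.82 CPM in NNE at St. 12.5 but no count in the 3 NNEa libraries, beside 52.02, 2.204, 58.5, 22.5 and 47.4 CPM in ANF/PPE (edgeR, FDR of the change = 0.00673).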
